A study of Mus musculus with 9 samples.

Results

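Regulators of G-protein signaling (RGS proteins) were examined through 7 genes, Rgs1, Rgs2, Rgs3, Rgs14, Rgs16, Rgs18 and Rgs19. These genes were picked by name from the 46517 genes of the deposited table, with earlier results of these data known. Each of the 7 symbols was listed once, and 15 further genes carry an Rgs family name. On day 27, neutrophils of C57BL/6 mice were sorted from 3 compartments (bone marrow, blood, pancreatic tumor) after orthotopic transplantation (OT) of pancreatic ductal adenocarcinoma (PDAC) cells. All 9 libraries, 3 per compartment, came from tumor-bearing mice, so the blood and bone marrow libraries are not from healthy animals and no library of a mouse without a tumor was analysed here. The sort gate was Dapi-, CD45+, negative for CD3, B220 and NK1.1, Ly6G+ and Ly6C+ in each compartment, and the bone marrow libraries are labelled Ly6G.hi and the others Ly6G+. The study pooled mice for each library and ran independent experiments, and p-values here measure the spread between these pools. Mice of both sexes entered the study, and the age and sex behind each library are not given in the sources used here.

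RGS proteins switch off signals from G-protein-coupled receptors. A receptor bound by its ligand loads the G alpha subunit with GTP, the alpha and beta-gamma subunits separate and act on effectors, and an RGS protein speeds the hydrolysis of GTP by the alpha subunit so that the subunits rejoin. Neutrophils read chemokines, formyl peptides, leukotrienes and complement fragments through receptors of this kind, mostly coupled to the inhibitory class of alpha subunits (Gi), and such signals guide their exit from marrow, adhesion and migration.

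Of the 7 genes, Rgs2, Rgs14, Rgs18 and Rgs19 were lower in tumor libraries than in blood and bone marrow libraries. Rgs1 and Rgs16 were higher than in both. Summed tumor epithelium and fibroblast markers were higher and mature neutrophil markers lower in the same tumor libraries, and their part was not tested. Rgs2 was highest in blood, Rgs18 and Rgs19 were highest in bone marrow, and Rgs14 did not pass the test between these 2 compartments. Rgs3 was highest in all 3 blood libraries. Rgs1 went from 0.266% ± 0.027 (SD, n = 3) of all Rgs family transcripts, counted per kilobase of exon, in bone marrow to 20.9% ± 4.42 in tumor.

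The start regions of 3 genes are shown first, 1 highest in blood (Rgs2), 1 highest in tumor (Rgs16) and 1 highest in bone marrow (Rgs19). RefSeq promoters on GRCm38.p6, from 250 bases before to 50 bases after the start, were matched for 4 of the 7 genes, and those of Rgs2, Rgs16 and the first of Rgs19 are printed 5′ to 3′ with motif matches in capitals. Rgs2 lies at chr1:144004100-144004399 on the minus strand, Rgs16 at chr1:153740103-153740402 on the plus strand and Rgs19 at chr2:181693928-181694227 on the minus strand.
Rgs2: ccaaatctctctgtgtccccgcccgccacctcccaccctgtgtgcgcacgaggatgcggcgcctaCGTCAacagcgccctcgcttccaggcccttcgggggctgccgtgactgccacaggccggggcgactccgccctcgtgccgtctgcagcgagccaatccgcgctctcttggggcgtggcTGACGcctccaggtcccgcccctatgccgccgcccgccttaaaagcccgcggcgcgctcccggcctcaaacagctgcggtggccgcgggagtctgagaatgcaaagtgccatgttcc
Rgs16: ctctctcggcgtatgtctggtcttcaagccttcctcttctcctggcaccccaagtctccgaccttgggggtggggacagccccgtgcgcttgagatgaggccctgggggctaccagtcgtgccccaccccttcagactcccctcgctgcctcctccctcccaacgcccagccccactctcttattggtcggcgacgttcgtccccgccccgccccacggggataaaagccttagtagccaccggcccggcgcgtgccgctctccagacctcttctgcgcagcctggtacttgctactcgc
Rgs19: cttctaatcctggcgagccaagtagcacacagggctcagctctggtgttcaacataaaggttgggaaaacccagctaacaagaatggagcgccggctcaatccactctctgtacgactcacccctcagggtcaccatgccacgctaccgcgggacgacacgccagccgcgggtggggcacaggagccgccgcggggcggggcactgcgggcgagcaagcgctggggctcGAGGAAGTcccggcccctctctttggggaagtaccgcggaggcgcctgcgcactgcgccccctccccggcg
The capitals mark, on either strand, TGACG (part of the cyclic AMP response element) in Rgs2 and GAGGAAGT (bound by the myeloid factor PU.1) in Rgs19. TGACG was found 185 bases before the Rgs2 start on the minus strand and 67 bases before it on the plus strand, and 20.8% of all 32851 promoters hold it at least once. GAGGAAGT was found 21 bases before the Rgs19 start, and 3.20% of all promoters hold it. The other motifs searched were ACGTG (hypoxia response core, in 19.6% of promoters), TGANTCA (AP-1, 7.81%), TATAAA (a core promoter element, 13.6%) and the NF-kappaB site (4.51%). Some matches lay in windows that are not printed. The second Rgs19 window held ACGTG on both strands, 9 and 10 bases after its start, and GAGGAAGT 188 bases before it. TATAAA was found in both Rgs3 windows, 100 and 177 bases before their starts. None of the 6 motifs was found in the Rgs16 window. The GC content of the 3 windows was 70.0% in Rgs2, 66.0% in Rgs16 and 66.7% in Rgs19, against a median of 52.7% over all promoters. TGACG and ACGTG overlap where a window reads TGACGTG, which none of the 3 printed windows does. A match describes letters only and says nothing of binding.

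The 9 libraries held 4580807 to 7949367 recovered reads, and the number of reads was highest in bone marrow (7108871 to 7949367). The values were normalized by the authors to scaled library sizes, and plain library totals would raise the median gene by 0.45 on the log2 scale in both contrasts with tumor. The 10 markers of mature neutrophils were all detected in each compartment and summed to between 45705 and 47097 RPM (reads scaled to the library total) for bone marrow, 35245 and 36033 for blood, and 11814 and 13727 for tumor. Markers of immature neutrophils summed to 80819 to 88552, 3133 to 3853 and 7132 to 11356 RPM in the same order. Of cells that the CD45+ Ly6G+ gate is meant to remove, 8 of 8 tumor epithelium markers and 7 of 7 fibroblast markers were above every other library in the tumor libraries, at 2773 to 5908 and 1105 to 1361 RPM, against at most 141.0 and 9.99 elsewhere. In the same order, platelet markers stood at 81.3 to 115.6, 967 to 1264 and 37.8 to 67.9 RPM, and red cell markers at 26.8 to 56.7, 244.9 to 470.5 and 12.9 to 139.5. Macrophage and monocyte markers ranged over 424 to 465, 1146 to 1343 and 393 to 503 RPM, endothelial markers over 10.8 to 17.99, 85.3 to 122.8 and 80.4 to 124.0, B cell markers over 16.0 to 40.1, 81.8 to 135.1 and 3.67 to 15.1, and T and NK cell markers over 18.4 to 25.7, 27.7 to 66.4 and 6.15 to 7.46. In tumor, 10 of 10 mature neutrophil markers were lower than in blood, with a median of -1.84 on the log2 scale, and 9 of 10 were lower than in bone marrow, with a median of -2.76. They moved in the same direction as Rgs2, Rgs14, Rgs18 and Rgs19 below, and their part in those results was not tested. In pooled cells, fewer cells of a type and less RNA per cell cannot be told apart.

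A first fit tested 7794 genes with log2 FPKM over 0 in at least 3 libraries. Of the 7 Rgs genes, 5 passed this filter, Rgs1 through its tumor libraries. The 7 genes were also chosen with earlier results of these data known, so the counts here are a description. The 5 changed between tumor and blood, 1 higher and 4 lower, where 28.1% of all tested genes were called higher and 34.5% lower. The same 1 higher and 4 lower were found between tumor and bone marrow, where 22.4% of genes were called higher and 32.9% lower. Both contrasts use the same tumor libraries. Between blood and bone marrow, 1 was higher and 2 were lower, against 20.6% and 23.6% of genes. The median log2 fold change of the 5 was -2.39 for tumor against blood and -2.29 for tumor against bone marrow, beside -0.17 and -0.21 over all tested genes. Rgs3 and Rgs16 did not pass that filter, and their tests come from a fit on 17714 genes that reached 5 reads in 1 or more libraries. With all 7 genes in that fit, which Rgs16 entered through its tumor libraries alone, 2 were higher and 5 lower in tumor than in blood, 2 higher and 4 lower than in bone marrow, and 2 higher and 2 lower between blood and bone marrow, with medians of -1.89 and -1.17 in the tumor contrasts beside 0.50 and 0.29 over all genes. In that fit 32.4% of genes were called higher and 20.2% lower in tumor than in blood, 25.2% and 18.4% in tumor than in bone marrow, and 12.6% and 16.3% in blood than in bone marrow.

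**Figure D1:**
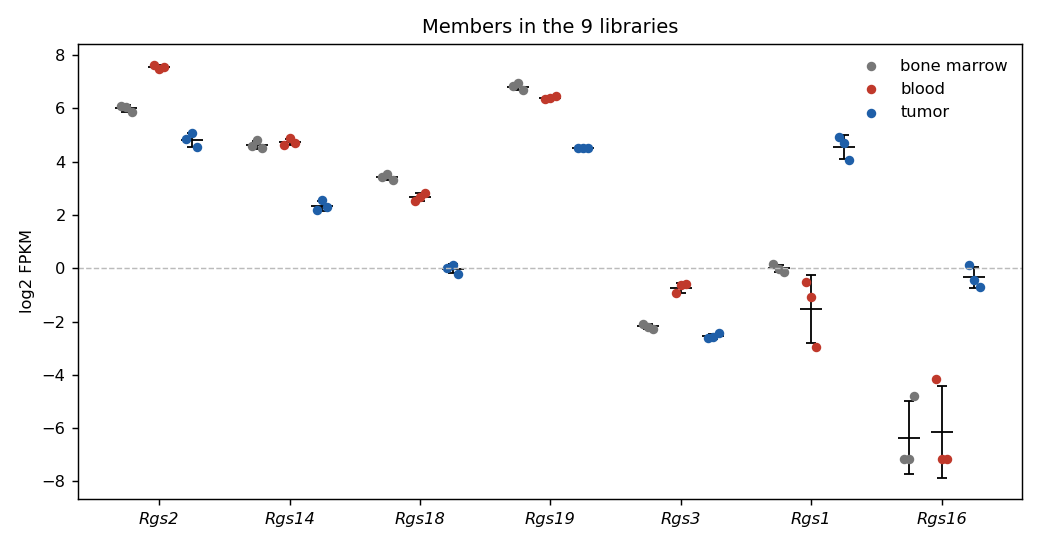
Log2 FPKM (vertical axis) of the 7 genes in each library, colored by compartment, with bars for the mean and SD of 3 libraries; the lowest Rgs16 points are libraries with 0 reads. The tumor points lie below all others for Rgs2, Rgs14, Rgs18 and Rgs19 and above all others for Rgs1 and Rgs16.

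Rgs2, a short RGS protein that acts mostly on the Gq class of alpha subunits, rose from bone marrow to blood and was lowest in tumor. Its log2 FPKM was 6.08, 6.06 and 5.85 in the bone marrow libraries, 7.63, 7.46 and 7.55 in those of blood and 4.86, 5.06 and 4.54 in those of tumor. The 3 blood libraries were the highest and the 3 tumor libraries the lowest, with no overlap between compartments. The difference of tumor from blood was -2.73 ± 0.14 on the log2 scale (SE; limma adjusted p = 4.30e-06). That from bone marrow was -1.17 ± 0.14 (limma adjusted p = 0.000232) and shrank to -0.72 with plain library totals. Blood exceeded bone marrow by 1.55 ± 0.14 (limma adjusted p = 0.000118), so the bone marrow level lay between the others.

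Rgs19, also known as GAIP, carries a string of cysteines near its start that anchors it to membranes. Its log2 FPKM was 6.83, 6.94 and 6.67 in the bone marrow libraries, 6.35, 6.39 and 6.45 in those of blood and 4.52, 4.50 and 4.51 in those of tumor. On the scaled library sizes the tumor libraries lay close together, with an SD of 0.0093, and below all others. With plain library totals they spread more, at 68.0, 63.9 and 72.2 RPM per kilobase of exon. The difference was -1.89 ± 0.08 from blood (limma adjusted p = 2.65e-06) and -2.30 ± 0.08 from bone marrow (limma adjusted p = 2.45e-06). Blood was lower than bone marrow by a smaller step, -0.42 ± 0.08 (limma adjusted p = 0.00493), and this call was lost when values were centred on the median of the genes that passed the reads filter (-0.15, limma adjusted p = 0.389).

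Rgs14, a scaffold that joins an RGS domain to Ras-binding domains and a GoLoco motif, had log2 FPKM values of 4.60, 4.80 and 4.52 in the bone marrow libraries, 4.63, 4.87 and 4.70 in those of blood and 2.18, 2.55 and 2.32 in those of tumor. The bone marrow and blood libraries overlapped and the tumor libraries lay below both. The difference of tumor was -2.39 ± 0.13 from blood (limma adjusted p = 4.85e-06) and -2.29 ± 0.13 from bone marrow (limma adjusted p = 5.78e-06). Blood against bone marrow gave 0.10 ± 0.13, with a 95% interval of -0.20 to 0.39, and did not pass the test (limma adjusted p = 0.579).

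Rgs18 is a short RGS protein known from platelets, megakaryocytes and other blood cells. Its log2 FPKM was 3.42, 3.53 and 3.33 in the bone marrow libraries, 2.52, 2.69 and 2.83 in those of blood and 0.01, 0.14 and -0.20 in those of tumor. The values fell from bone marrow to blood to tumor with no overlap. The difference of tumor was -2.70 ± 0.13 from blood (limma adjusted p = 3.88e-06) and -3.44 ± 0.13 from bone marrow (limma adjusted p = 2.45e-06), the latter the largest decrease among these 5 genes. Blood against bone marrow gave -0.75 ± 0.13 (limma adjusted p = 0.00284), a call lost under the same median centring (-0.48, limma adjusted p = 0.0681). Of 10 platelet markers, 10 were higher in blood than in bone marrow, 10 fell in tumor against blood and 3 fell in tumor against bone marrow, and the part of platelets in the Rgs18 values was not tested.

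Rgs3, which exists in short and long isoforms and acts on the Gi and Gq classes, spans 144155 bases and so has a low FPKM for its reads. Its reads numbered 227, 179 and 196 in the bone marrow libraries, 296, 515 and 445 in those of blood and 145, 182 and 210 in those of tumor. On the log2 FPKM scale the values were -2.08, -2.19 and -2.29 in the bone marrow libraries, -0.94, -0.64 and -0.60 in those of blood and -2.62, -2.58 and -2.44 in those of tumor, so blood lay above both other compartments in every library. The difference in the reads-filter fit was -1.82 ± 0.24 for tumor against blood (limma adjusted p = 0.000394) and 1.46 ± 0.24 for blood against bone marrow (limma adjusted p = 0.00294). Tumor against bone marrow gave -0.36 ± 0.24, with a 95% interval of -0.92 to 0.19 (limma adjusted p = 0.259), and its sign depended on the scaling, at 0.09 with plain library totals (limma adjusted p = 0.792), -0.84 with median centring (limma adjusted p = 0.0225) and -1.33 with quantile normalization (limma adjusted p = 0.00426).

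Rgs1, which dampens chemokine receptor signals in lymphocytes, was the 1 gene of these 5 that was higher in tumor. Its log2 FPKM was 0.14, -0.04 and -0.13 in the bone marrow libraries, -0.52, -1.09 and -2.97 in those of blood and 4.92, 4.70 and 4.05 in those of tumor. The tumor libraries lay far above the others, with 1308, 1365 and 915 reads against at most 51 elsewhere, and among the blood libraries the third held 4 reads and the others 19 and 18. Tumor exceeded blood by 6.08 ± 0.58 on the log2 scale (limma adjusted p = 6.04e-05) and bone marrow by 4.57 ± 0.58 (limma adjusted p = 0.000325). Rgs1 passed the FPKM filter through its tumor libraries, so these calls are a description. Without the third blood library the excess over blood was 5.36. Blood against bone marrow gave -1.52 ± 0.58 and did not pass the test (limma adjusted p = 0.0652), although it did so at -2.02 without the first blood library (limma adjusted p = 0.0242) and with the replicate number as a block (limma adjusted p = 0.0335). Rgs1 is also known from T and NK cells and macrophages. In the reads-filter fit, 5 of 10 T and NK cell markers fell below their blood level in tumor. Of the same 10, 2 fell below their bone marrow level, and in each contrast the others were not called. Under plain library totals, quantile normalization or median centring, 4 to 9 fell below blood and 0 rose above it. Set against bone marrow, 2 to 5 fell and 0 to 1 rose under these scalings. Only Ncr1 and Klrb1c of the 10 had 0 reads in every tumor library. The part of T and NK cells in the Rgs1 values was not tested. Of 10 macrophage and monocyte markers in the reads-filter fit, 1 was higher and 3 were lower in tumor than in either other compartment. With plain library totals, quantile normalization or median centring, 0 to 4 were higher and 3 to 4 lower than in blood. Against bone marrow, 0 to 2 were higher and 2 to 3 lower under these scalings. The part of macrophages and monocytes in the Rgs1 values was not tested. Tumor epithelium and fibroblast markers, of cells that the CD45+ gate is meant to remove, were higher in the same tumor libraries, and the part of these cells in the result was not tested.

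Rgs16, a short RGS protein that is induced by stimulation in many cells, had 34, 28 and 25 reads in tumor, 0, 0 and 1 in bone marrow and 1, 0 and 0 in blood. It was detected in every tumor library and in 1 of 3 libraries of each other compartment. Pooled over libraries and set against scaled library sizes, 87 tumor reads faced 1 blood read, a ratio of 57.0 with a 95% counting interval of 9.96 to 2277, and 1 bone marrow read, a ratio of 76.1 with an interval of 13.3 to 3039. Intervals on reads cover counting error only. Rgs16 entered the reads-filter fit through its tumor libraries alone, so its calls there (limma adjusted p = 0.00137 against blood and 0.00138 against bone marrow) are a description, while blood against bone marrow, near the detection limit in both, gave limma adjusted p = 0.947. An antisense gene, Gm28513, shares 236 exon bases with Rgs16, and reads of the 2 cannot be told apart without strand. The tumor epithelium and fibroblast markers, of cells the gate is meant to remove, were higher in the same libraries, and their part was not tested.

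**Figure D2:**
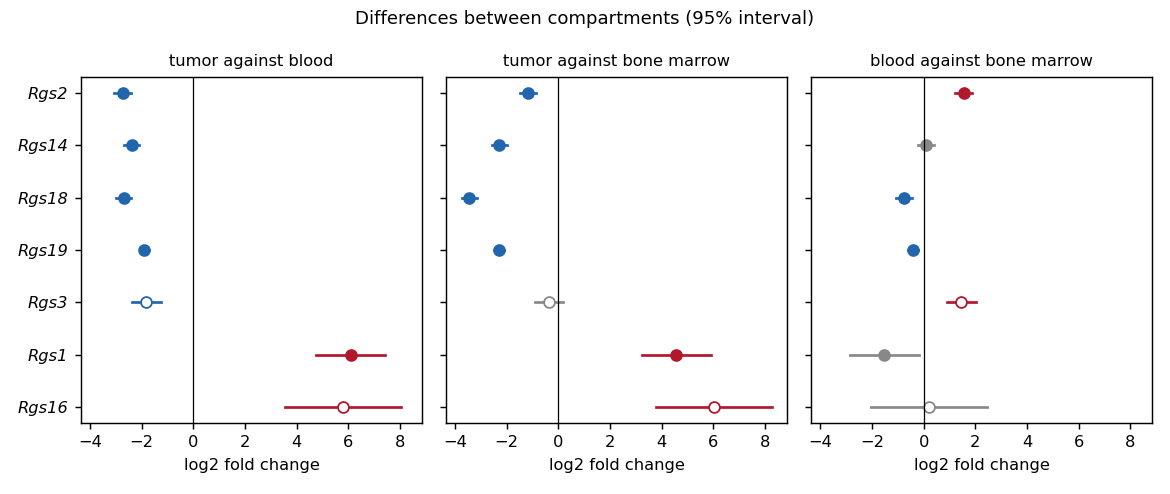
Log2 fold change (horizontal axis) with its 95% interval for the 7 genes in 3 contrasts, in red where higher, blue where lower and grey where the test was not passed. Open circles (Rgs3 and Rgs16) are from the fit with the reads filter; intervals of the tumor contrasts lie on opposite sides of 0 for Rgs1 and Rgs16 against Rgs2, Rgs14, Rgs18 and Rgs19.

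FPKM in the deposited table is per base of genomic span for all 7 genes, so levels were compared between genes as RPM per kilobase of exon (of basic coding transcripts), with plain library totals. On this scale Rgs19 led in bone marrow at 245.7 ± 10.6 (SD, n = 3), followed by Rgs14 at 132.7 ± 7.06, Rgs18 at 101.0 ± 1.79, Rgs2 at 79.3 ± 4.43, Rgs3 at 3.39 ± 0.22 and Rgs1 at 1.504 ± 0.15. The libraries of each gene in this order did not overlap with those of the next. Rgs2 led in blood at 233.7 ± 20.7, followed by Rgs19 at 184.4 ± 6.82, Rgs14 at 142.1 ± 8.43, Rgs18 at 60.5 ± 6.03 and Rgs3 at 9.36 ± 1.01, again with no overlap between neighbours in the order. In tumor, Rgs19 stood at 68.0 ± 4.12, Rgs1 at 50.05 ± 12.97, Rgs2 at 48.3 ± 5.81, Rgs14 at 37.2 ± 4.04, Rgs18 at 12.7 ± 0.74, Rgs3 at 3.62 ± 0.44 and Rgs16 at 2.01 ± 0.57. Rgs1 overlapped there with both Rgs2 and Rgs14, and its ratio to Rgs2 was 1.27, 0.951 and 0.870 in the 3 tumor libraries against 0.018 to 0.020 in bone marrow and 0.00080 to 0.0043 in blood.

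Summed over the 22 genes of the family, the level for bone marrow was 566 ± 20.6, for blood 639 ± 16.0 and for tumor 237 ± 13.7, on the same per-exon scale, with no overlap between compartments. The bone marrow level was 2.38 times and the blood level 2.69 times that of tumor. The 7 genes made up 99.6% ± 0.13 of this sum for bone marrow, 98.7% ± 0.22 for blood and 93.5% ± 0.29 for tumor. Rgs19 took 43.4% ± 0.30 of the family for bone marrow, 28.8% ± 0.63 for blood and 28.8% ± 3.35 for tumor. Rgs2 took 14.02% ± 0.63, 36.5% ± 2.51 and 20.3% ± 1.53, and Rgs18 17.9% ± 0.35, 9.47% ± 0.90 and 5.35% ± 0.13. The share of Rgs1 in tumor depends on the exon length assumed, at 20.9% with coding transcripts and 14.7% with all annotated exons, where Rgs2 took 23.1%. With all annotated exons Rgs18 (20.8%) also stood above Rgs14 (15.2%) in bone marrow.

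**Figure D3:**
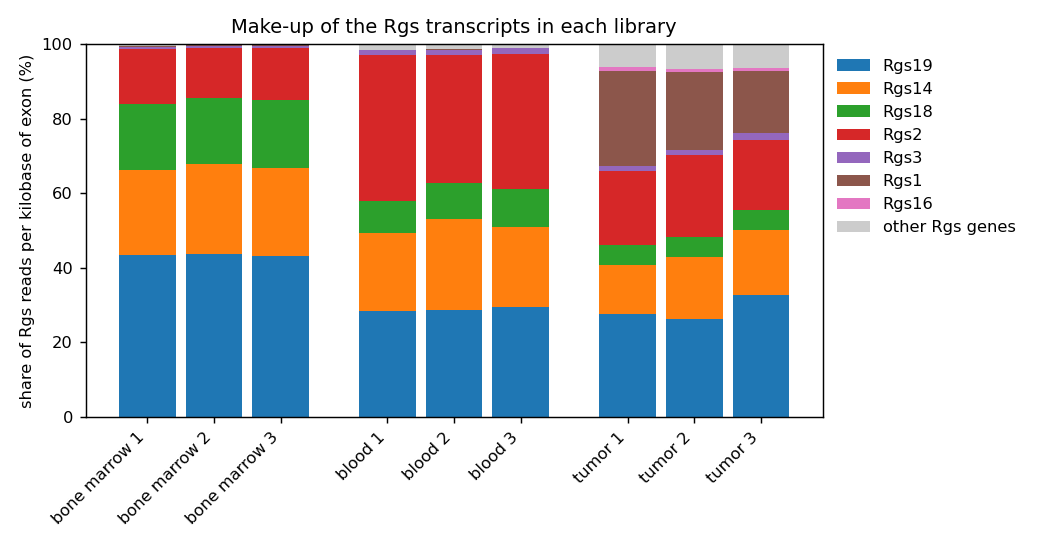
Share in percent of each Rgs gene in the reads per kilobase of exon of the family (vertical axis, 0 to 100) in the 9 libraries. Rgs19 is the largest share in bone marrow, Rgs2 in blood, and Rgs1 appears as a large share in tumor, at 16.5% to 25.4%.

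Several of the genes are neighbours on chromosome 1 of GRCm38. Rgs2 (ENSMUSG00000026360.8) lies at 143999338 to 144004161, Rgs1 (ENSMUSG00000026358.12) at 144242296 to 144249242 and Rgs18 (ENSMUSG00000026357.3) at 144752683 to 144775435, all on the minus strand. The gaps are 238.1 kb between Rgs2 and Rgs1 and 503.4 kb between Rgs1 and Rgs18, with Rgs13 and Rgs21, which had no reads, between them. These 3 neighbours moved apart in tumor, with Rgs1 higher and Rgs2 and Rgs18 lower than in both other compartments. Rgs16 (ENSMUSG00000026475.7) is on the same chromosome at 153740349 to 153745468 on the plus strand, 8965 kb beyond Rgs18. Rgs3 (ENSMUSG00000059810.17) is on chromosome 4 at 62559847 to 62704001, Rgs14 (ENSMUSG00000052087.12) on chromosome 13 at 55369732 to 55384687 and Rgs19 (ENSMUSG00000002458.12) on chromosome 2 at 181688419 to 181693977.

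Of the 15 other Rgs family genes, 6 reached 5 reads in 1 or more libraries. Against blood, 4 were higher and 1 lower in tumor (2 to 4 higher over the scalings tried), and against bone marrow 3 were higher and 0 lower. Rgs5, known from pericytes, had 199, 276 and 209 reads in tumor against at most 6 in any other library, 684 pooled against 3 in blood and 8 in bone marrow, ratios of 149.4 (95% counting interval 50.9 to 726) and 74.8 (37.7 to 174). Rgs10, known from macrophages and microglia, had 46, 63 and 43 reads in blood, 21, 8 and 7 in bone marrow and 26, 38 and 15 in tumor, with blood above bone marrow by 2.64 on the log2 scale (limma adjusted p = 0.00843) and tumor below blood by -1.63 (limma adjusted p = 0.0365, a call lost with plain library totals). Summed markers of platelets, red cells, macrophages and monocytes, B cells, and T and NK cells were each highest in blood. Their part in the Rgs10 values was not tested. Fibroblast and tumor epithelium markers were higher in the same tumor libraries as Rgs5, and their part was not tested. Of 5 endothelial markers, 3 were higher and 1 lower in tumor than in blood and 5 were higher than in bone marrow (2 with quantile normalization), and 4 stood above every other library in tumor; their part was not tested either. Rgs4, Rgs11 and Rgs17 passed the 5-read filter through tumor libraries alone, so these counts are a description. Rgs17, with 5 reads in the third tumor library, was named after its values were seen. Named after their values were seen, Rgs4, Rgs11 and Rgs12 were the others called higher in tumor than in blood, at 22, 16 and 44 reads, 8, 16 and 27 reads, and 30, 49 and 31 reads in tumor. Their calls against blood were lost under median centring for Rgs4 and under quantile normalization for Rgs11 and Rgs12, and Rgs11 and Rgs12 share exon bases with genes on the other strand (138 with Arhgdig and 467 with Gm43791).

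The pathway around RGS proteins was examined with lists of 13 alpha subunits, 17 beta and gamma subunits, 13 other genes with an RGS domain, 8 arrestins and modulators, 20 effectors and 28 receptors, tested in the reads-filter fit, in which the median gene moved by 0.50 in tumor against blood and 0.29 in tumor against bone marrow on the log2 scale. In that fit 32.4% of all genes were called higher and 20.2% lower in tumor than in blood, and 25.2% and 18.4% in tumor than in bone marrow. The same fit was repeated with plain library totals, quantile normalization and median centring, and counts over these scalings are given as ranges. Named after their values were seen, Gnai1, Axin2, Prex2 and Adora1 reached 5 reads in tumor libraries alone. The counts of their lists are therefore a description. Of 12 tested G alpha subunits, 2 were higher and 4 lower in tumor than in blood, and 3 higher and 4 lower than in bone marrow, with medians of 0.12 and -0.08 (1 to 4 higher and 3 to 5 lower than in blood over the scalings). Gnai2 and Gnai3, the inhibitory subunits with the most reads, were lower in tumor than in blood by -1.78 (limma adjusted p = 2.69e-05) and -0.87 (limma adjusted p = 0.000131), and than in bone marrow by -1.80 and -1.10. Gna13 exceeded its bone marrow level by 0.76 (limma adjusted p = 0.00756), a call lost with median centring, and gave 0.06 against blood (limma adjusted p = 0.805), with calls in opposite directions under plain library totals (0.50) and median centring (-0.70). Of 11 tested beta and gamma subunits, 2 were higher and 6 lower than in blood and 2 higher and 5 lower than in bone marrow, with medians of -0.60 and -0.57, and over the scalings 2 to 7 were lower in each contrast. Gnb1 was 0.23 against blood (limma adjusted p = 0.104; 0.68 with plain library totals and -0.52 with median centring, both called) and -0.54 against bone marrow (limma adjusted p = 0.00404), a call lost with plain library totals. Gnb2 was lower by -0.80 and -1.29 and Gng12 by -0.60 and -0.60, of which Gnb2 against blood and Gng12 in both contrasts were lost with plain library totals.

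Of 13 other genes with an RGS domain, 2 were higher and 5 lower in tumor than in blood and 1 higher and 6 lower than in bone marrow, with medians of -0.85 and -0.66, and over the scalings 2 to 10 were lower than in blood. Adrbk1, the receptor kinase also called GRK2, was lower by -1.88 and -1.42 (limma adjusted p = 1.6e-05 and 7.17e-05), Snx13, a sorting nexin, by -0.85 and -0.99, the first lost with plain library totals, and Arhgef1 gave -0.55 (limma adjusted p = 0.455) against blood and -2.25 (limma adjusted p = 0.014) against bone marrow. Of 7 arrestins and G-protein modulators, 3 were higher and 3 lower than in blood, and 1 higher and 3 lower than in bone marrow, with medians of 1.03 and -0.35. Over the scalings 2 to 4 were higher and 2 to 3 lower than in blood, and the sign of both medians turned, to -1.08 against blood with quantile normalization and to 0.11 against bone marrow with plain library totals. Arrb2, an arrestin that desensitizes receptors, was lower by -1.42 and -2.05 and Gpsm3, a modulator of G alpha, by -2.50 and -2.57, while Arrb1 was lower by -0.80 and -0.79 and lost both calls with plain library totals. Of 18 effectors, 3 were higher and 8 lower in either contrast (7 to 12 lower over the scalings), with medians of -0.89 and -1.003. Pik3r5, a regulatory subunit of phosphoinositide 3-kinase gamma, was lower by -2.46 and -1.40, and Dock2, a Rac exchange factor for migration, by -1.86 and -1.51, while Elmo1, a partner of Dock2, gave -0.40 (limma adjusted p = 0.117; called at -1.07 with quantile normalization and -1.15 with median centring) and -0.95 (limma adjusted p = 0.00469), the latter lost with plain library totals.

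Of 27 tested receptors, listed as binding chemoattractants or as coupled to Gi, 6 were higher and 14 lower in tumor than in blood. Against bone marrow, 12 were higher and 8 lower. Over the scalings, 11 to 17 were lower than in blood. The medians were -0.83 and 0.20, and 11 were higher and 4 lower in blood than in bone marrow. With median centring the order against bone marrow turned, with 8 higher and 10 lower. Cxcr2, the receptor for neutrophil chemokines and also among the mature neutrophil markers, was lower by -2.39 (limma adjusted p = 5.75e-06) and -1.12 (limma adjusted p = 0.000198). Ccr1, a receptor for CC chemokines, gave -0.37 against blood (limma adjusted p = 0.0988; called at -1.12 with median centring) and exceeded bone marrow by 0.79 (limma adjusted p = 0.00549), a call lost with median centring. Hcar2, a receptor for nicotinic acid and ketone bodies, was higher by 3.85 (limma adjusted p = 8.96e-06) and 5.45 (limma adjusted p = 3.15e-06). The mature and immature neutrophil, tumor epithelium and fibroblast markers given above also differed between the compartments, and their part in the list counts was not tested. Between blood and bone marrow, 2 alpha subunits were higher and 1 lower, and 2 beta and gamma subunits higher and 2 lower, in blood. Of other RGS-domain genes 2 were higher and 1 lower, of arrestins and modulators 0 and 3, and of effectors 4 and 2. Beside these counts, 12.6% of all genes in that fit were called higher and 16.3% lower in blood.

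**Figure D4:**
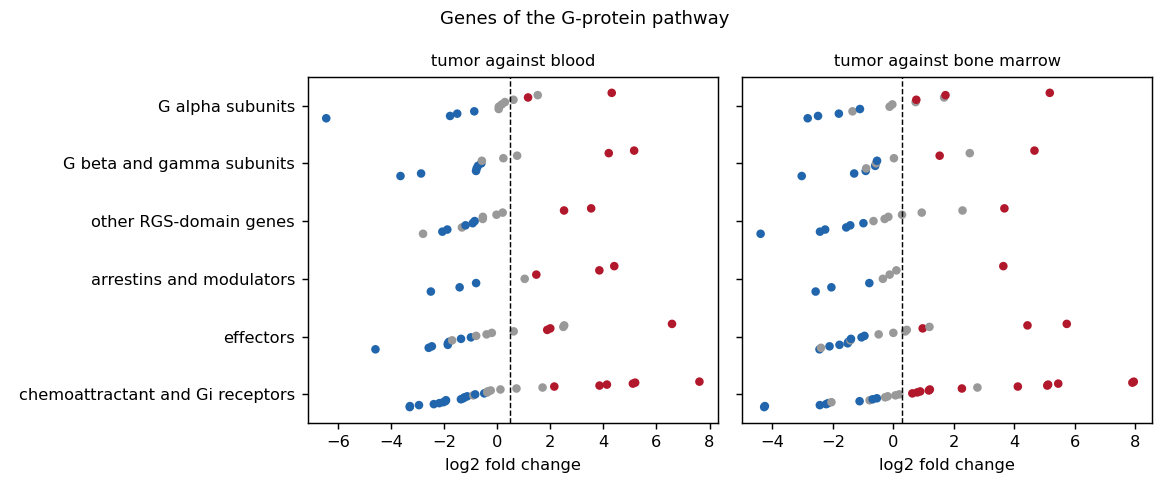
Log2 fold change (horizontal axis) of each tested gene of 6 pathway lists in tumor against blood and tumor against bone marrow, in red where higher, blue where lower and grey where the test was not passed; the dashed line is the median of all tested genes. Of 27 receptors, 6 were higher and 14 lower than in blood.

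For each of the 5 genes over the FPKM filter, the tested genes most like it over the 9 libraries were found from the root mean square difference of centred log2 values. Pgd and Alox5 were nearest to Rgs19, at 0.072 and 0.087, and Cdkn2d and Sash3 to Rgs14, at 0.11 and 0.13. Ppp1r3d and Rnd1 were nearest to Rgs2, at 0.13 each, and 9830107B12Rik and Tnfsf13b to Rgs18, at 0.11 and 0.15. Anxa4 and Hmgn1 were nearest to Rgs1, at 0.48 and 0.66, a looser match than for the other 4.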

How the data were processed

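RNA of sorted neutrophils was made into cDNA by the SMARTSeq v2 protocol and sequenced on an Illumina instrument in 9 libraries. The submitters' processing notes name STAR 2.5.2b, featureCounts 1.5.0 and edgeR 3.8.6, and the study's methods name GRCm38 and GENCODE M7 and a limma-voom test. The deposited values are log2 FPKM, which the authors computed with scaled library sizes, a small constant added before the log, and the genomic span as length for 38873 of 46005 genes found in GENCODE M21. The constant makes fold changes of genes with few reads understated. Whole reads were recovered for 46517 of 46517 genes, within a tolerance of 1e-06, and 22656 genes had none. Positions and exon lengths are from GENCODE M21, and coding exon lengths were chosen after the data were seen, since all annotated exons of Rgs1 fill its span.

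Log2 values were kept for genes above 0 in 3 or more of the libraries and fitted with limma 3.58.1 in R 4.3.3 (lmFit and eBayes with a trend), with all 9 libraries, 1 coefficient per compartment and Benjamini-Hochberg adjustment over all tested genes at 0.05. Rgs3, Rgs16, the other family genes and the pathway lists were tested in the same way on genes that reached 5 reads in 1 or more libraries. The members and lists were chosen with earlier results of these data known. The text names the 7 genes, other Rgs genes that reached 50 reads in a library, the 3 genes with the most reads of each pathway list, and the 2 genes most like each tested member. Promoters are from RefSeq. Alternatives covered filters, pseudocounts, normalization, voom on recovered reads, the replicate block and leaving out each library. The scripts were tested on simulated data. Python 3.11.15, numpy 2.4.6, pandas 2.3.3 and scipy 1.17.1 were used.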

Additional observations from a re-analysis of the deposited data

How the results depend on the processing

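In the tumor contrasts, each of the 5 genes over the FPKM filter kept its direction and its call under each alternative run. Rgs1 stood at 4.12 (pseudocount of 1) to 6.59 above blood. It passed that filter through its tumor libraries, so its calls are a description. Between blood and bone marrow, 3 of the 5 were called, and 1 when a log2 fold change of 1 or more in either direction was also required. Leaving out each library gave 3 to 4 calls there. With the replicate block, 5, 5 and 4 of the genes were called in tumor against blood, tumor against bone marrow and blood against bone marrow, the added gene being Rgs1 (-1.52, limma adjusted p = 0.0335), and no other call changed. The study compared compartments of the same mice, but no source used here says that the replicate numbers mark them, and the libraries are taken to share only a number: the correlations of same-numbered deviations ran from -0.071 to 0.108 and 8 of 18 comparisons were best with the own number. The combinations of the reads filter with plain library totals, quantile normalization or median centring were chosen after seeing the data. They moved Rgs3 in tumor against blood to -1.37, -2.88 and -2.57, in tumor against bone marrow to 0.09, -1.33 and -0.84, and with median centring in blood against bone marrow to 1.73. Rgs16 is limited by depth, with 0 or 1 read in each library outside the tumor.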
